A study of Homo sapiens with 12 samples.

Results

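The regions described here are promoter regions that carried more acetylated H2A.Z (H2A.Zac) in ΔTRRAP than in WT cells while the H2A.Z beneath them was listed as unchanged. They were chosen by the class that both marks had been given in the comparison of the 2 lines: a region had to be listed as gained for H2A.Zac, overlap a 2-kb window centered on the transcription start site (TSS) of a GENCODE gene, have at least 25% of its length covered by unchanged H2A.Z regions, and share no base with a gained or lost H2A.Z region. This rule found 5137 regions among 24844 gained H2A.Zac regions and 94586 H2A.Zac regions in all. Of 31938 TSS-proximal H2A.Zac regions, 9404 (29.4%) were listed as gained, against 26.3% of H2A.Zac regions over the whole genome. Among the 9404, 6435 met the coverage requirement, and 1298 of these were set aside because they touched a changed H2A.Z region. The 5137 that stayed were 54.6% of the TSS-proximal gained regions (Wilson 95% confidence interval, 53.6 to 55.6%). As a comparison, the same rule was mirrored to lost H2A.Zac regions, which gave 2038 regions, and to unchanged H2A.Zac regions, which gave 11592.

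Both marks were measured by chromatin immunoprecipitation followed by sequencing (ChIP-seq) in K562 cells, an established human line from chronic myeloid leukemia. In both lines compared, all endogenous EP400 carried a degradation tag and was removed with 500 nM dTAGV-1 for 24 h, and exogenous EP400 was expressed from the AAVS1 locus, either as the full protein (WT) or without the SANT and HD domains that hold TRRAP (ΔTRRAP). Each line was 1 clone, with 2 biological replicates each of input, H2A.Z and H2A.Zac, so that the 6 groups hold 12 libraries. The replicates were merged before the lines were compared, and each region in the lists used here carries 1 value, the log10 likelihood ratio between the lines. Sequencing depth is unknown. From these lists neither a spread between replicates nor a test across conditions can be given. A difference between the lines cannot be told apart from a difference between 2 clones.

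H2A.Z is a variant of histone H2A that sits in the nucleosomes on either side of the nucleosome-depleted stretch at many active TSSs. The TIP60 complex can both place H2A.Z into nucleosomes, through its EP400 motor, and acetylate it, through the KAT5 (TIP60) acetyltransferase, while its TRRAP subunit binds transcription factors and thereby brings the complex to particular sites. The amount of H2A.Z and its acetylation are set by different steps. In the paper's assays with purified TIP60, H2A.Z exchange rose when acetyl-CoA was present. Whether the steps came apart at the regions described here was not tested.

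Promoters chosen by a set of limits show how different the underlying sequences are. They are not those of the strongest members, whose ratios reached 63.1. Genes on a chromosome named with the processing were not considered. In order of the H2A.Zac ratio, the first 4 protein-coding genes within the limits were EPHB2 (18.7), ADO (16.8), KIF17 (16.7) and CFAP99 (15.1). The limits were a TSS spanned by a member wholly covered by unchanged H2A.Z, and 150 bases free of annotated exons just upstream. These bases, from the RefSeq promoter windows on GRCh38.p14 and written 5′ to 3′ on the strand of the gene, lie at chr1:22710688-22710837 (plus strand), chr10:62804570-62804719 (plus), chr1:20718018-20718167 (minus) and chr4:2418805-2418954 (plus), within 160 bases upstream of the start. Capitals mark any match to the 11 promoter motifs listed further on, on either strand.
EPHB2: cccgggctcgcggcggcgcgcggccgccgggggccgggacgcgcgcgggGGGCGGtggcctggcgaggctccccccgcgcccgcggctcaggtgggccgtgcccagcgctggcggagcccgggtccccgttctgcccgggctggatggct
ADO: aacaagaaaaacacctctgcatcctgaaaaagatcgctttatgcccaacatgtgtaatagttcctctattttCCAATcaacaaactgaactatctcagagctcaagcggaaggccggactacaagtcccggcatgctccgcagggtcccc
KIF17: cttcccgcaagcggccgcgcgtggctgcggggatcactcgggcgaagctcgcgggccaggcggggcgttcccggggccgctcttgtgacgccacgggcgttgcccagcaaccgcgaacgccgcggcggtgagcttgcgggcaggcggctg
CFAP99: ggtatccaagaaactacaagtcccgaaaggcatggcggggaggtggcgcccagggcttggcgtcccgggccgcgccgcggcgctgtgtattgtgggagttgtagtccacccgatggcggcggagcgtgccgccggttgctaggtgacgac

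The GC content of these stretches ran from 47.3% in ADO to 86.0% in EPHB2. KIF17 and CFAP99 held none of the 11 motifs. The EPHB2 and ADO stretches lie wholly inside their member, while 24 bases of the KIF17 and 31 of the CFAP99 stretch do. A second set is shown for the ETS motif, whose letters CCGGAAGT differed most between promoters that gained and lost H2A.Zac. They are the first genes in the same order with these letters upstream of the start and inside the member, chosen after the motif counts were seen: ATP13A1 at chr19:19663677-19663826 (minus strand), ZNHIT1 at chr7:101218015-101218164 (plus), IKZF4 at chr12:56007354-56007503 (plus) and GPN2 at chr1:26890284-26890433 (minus). Overlapping matches run together.
ATP13A1: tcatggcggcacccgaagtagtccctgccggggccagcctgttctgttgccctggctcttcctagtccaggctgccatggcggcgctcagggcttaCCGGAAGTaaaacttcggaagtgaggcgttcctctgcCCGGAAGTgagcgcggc
ZNHIT1: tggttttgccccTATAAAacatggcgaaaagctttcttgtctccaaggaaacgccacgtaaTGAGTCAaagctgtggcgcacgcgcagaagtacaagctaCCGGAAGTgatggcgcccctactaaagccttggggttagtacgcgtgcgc
IKZF4: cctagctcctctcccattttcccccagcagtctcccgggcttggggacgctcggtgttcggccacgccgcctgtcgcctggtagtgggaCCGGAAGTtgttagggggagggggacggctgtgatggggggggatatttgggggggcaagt
GPN2: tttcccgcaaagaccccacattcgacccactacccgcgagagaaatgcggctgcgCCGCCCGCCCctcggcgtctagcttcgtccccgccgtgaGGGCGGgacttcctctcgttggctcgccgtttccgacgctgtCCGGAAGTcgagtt

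ATP13A1 encodes a transporter of the endoplasmic reticulum membrane, ZNHIT1 a subunit of the SRCAP complex that deposits H2A.Z, IKZF4 a zinc finger factor of the Ikaros family and GPN2 a GTPase. Their members had log10 likelihood ratios of 10.5, 6.92, 6.85 and 6.83.

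Near TSSs, gain was the more frequent change where H2A.Z was unchanged. Of 18767 TSS-proximal H2A.Zac regions over unchanged H2A.Z, 5137 (27.4%) were gained and 2038 were lost, so that gained regions made up 71.6% of the changed ones (Wilson 95% confidence interval, 70.5 to 72.6%). Over the whole genome the numbers were close, with 24844 H2A.Zac regions gained and 24482 lost. The gained share was 63.9% (63.2 to 64.7%) among all changed TSS-proximal regions, 56.7% (55.0 to 58.5%) where no H2A.Z region was touched, and 56.0% (54.4 to 57.5%) among the 2190 gained and 1722 lost regions that touched H2A.Z changed the same way. The class of a region was part of the rule, so these shares describe the lists and are not tested. The intervals cover counting error only, and neighboring regions are not independent. The share lay above 50% on all 23 chromosomes compared, from 51.5% (43.0 to 60%) on chromosome 20, where 67 regions were gained and 63 lost, to 80.3% (74.7 to 84.8%) on chromosome X. The median chromosome had 70.8%. Only on chromosome 20 did the interval reach 50%. The excess of gained regions depended on how high a ratio was required. At a ratio of at least 10 there were 330 members, and the gained share was 53% (49.0 to 56.9%).

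**Figure D1:**
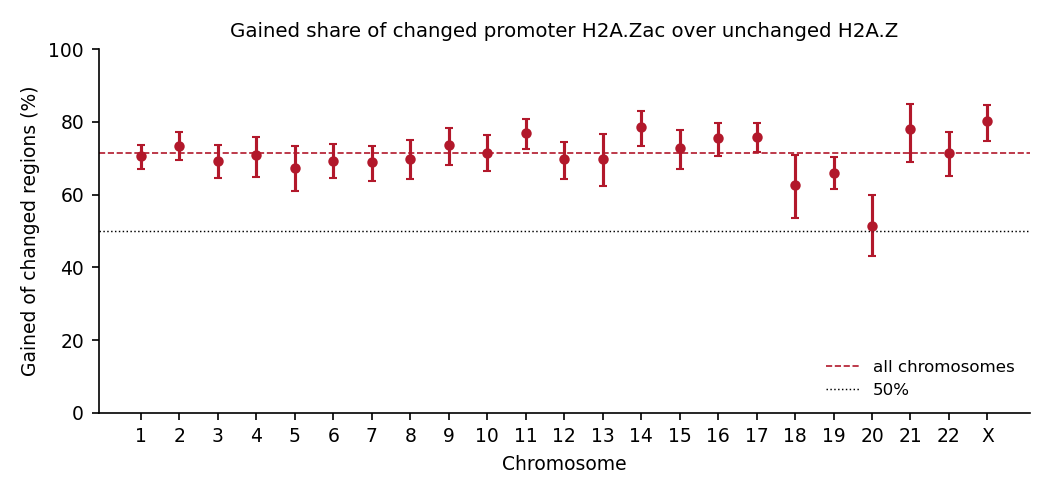
Gained share of the changed TSS-proximal H2A.Zac regions over unchanged H2A.Z (y axis, percent) on each chromosome (x axis). Points are shares with Wilson 95% intervals, the dashed line is the share over all chromosomes (71.6%) and the dotted line is 50%; chromosome 20 is lowest at 51.5% and chromosome X highest at 80.3%.

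Members lay downstream of the TSS more often than lost regions did, with 63.7% of midpoints against 44.9%, a difference of 18.8 percentage points (Newcombe 95% interval, 16.3 to 21.3; 23 of 23 chromosomes). Their midpoints were a median of 177 bp downstream of the nearest TSS, against a median offset of -156 bp, upstream, for lost regions and 82 bp downstream for unchanged ones. Midpoints within the first 500 bp downstream were found for 2210 members (43.0%) and 449 lost regions (22%), a difference of 21.0 percentage points (Newcombe 95% interval, 18.7 to 23.2) that had the same sign on 23 of 23 chromosomes. Far upstream the order was the opposite. Only 533 members (10.4%) had a midpoint more than 500 bp upstream, against 31.1% of the lost regions, a difference of -20.7 points (-22.9 to -18.6; 23 of 23 chromosomes). Upstream within 500 bp, members and lost regions had similar shares, 25.9% and 24.0%, with a difference of 1.92 points whose interval (-0.322 to 4.09) includes 0. The gained share of the changed regions was thus 45.7% (42.9 to 48.6%) over 500 bp upstream, 73.1% (71.0 to 75.1%) in the last 500 bp before the TSS, 83.1% (81.6 to 84.5%) in the first 500 bp after it, and 69.5% (67.2 to 71.8%) beyond.

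Members also reached over the TSS more often than lost regions. A TSS was spanned by 2060 members (40.1%) and 479 lost regions (23.5%), a difference of 16.6 points (Newcombe 95% interval, 14.3 to 18.8; 21 of 23 chromosomes). Unchanged regions, which were wider, spanned a TSS in 58.1% of cases. The median width was 548 bp for members, 516 bp for lost regions and 912 bp for unchanged ones, and the members ranged from 250 to 3995 bp. Read position by position, 40.1% of the members covered the TSS itself, and the share was highest 225 bp downstream, at 50.9%. For lost regions it was highest 550 bp upstream, at 31.3%. The H2A.Z beneath had another shape. Of the TSSs nearest the members, 77.7% had unchanged H2A.Z at 350 bp upstream, 59.8% at 75 bp upstream and 88.8% at 200 bp downstream, so that it formed a pair of shoulders around a dip. For lost regions the shares at the same positions were 71.5, 69.6 and 83.7%, with a shallower dip. Coverage by unchanged H2A.Z was part of the rule for both sets, so these levels are a description.

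**Figure D2:**
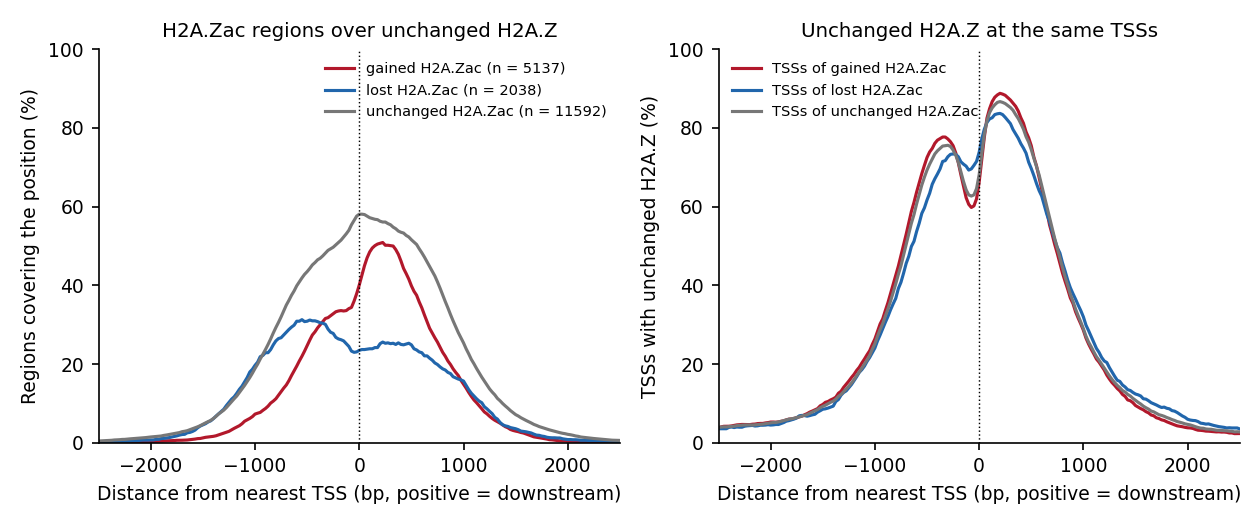
Left, share of H2A.Zac regions over unchanged H2A.Z that cover each position (y axis, percent) by distance from the nearest TSS (x axis, bp, positive downstream), for gained, lost and unchanged regions. Right, share of the same TSSs with unchanged H2A.Z at each position; members rise to 50.9% at 225 bp downstream and lost regions to 31.3% at 550 bp upstream, while H2A.Z has a dip near the TSS in all 3 sets.

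The annotation gave the same picture gene by gene. Of the 4255 members within 1 kb of a protein-coding TSS, the midpoint lay in intron 1 of the canonical transcript of the nearest such gene in 1525 (35.8%; Wilson 95% confidence interval, 34.4 to 37.3%), in exon 1 in 657 (15.4%, 14.4 to 16.6%) and upstream of the transcript in 1965 (46.2%, 44.7 to 47.7%). For lost regions these shares were 16.9, 12.3 and 68.1%, and for unchanged regions 27.4, 15.9 and 54.4%. The TSS of a gene is here the outermost start of its transcripts, so a midpoint can lie downstream of it and still upstream of the canonical transcript. Protein-coding TSSs were near 82.8% of members and 74.5% of lost regions, a difference of 8.35 points (Newcombe 95% interval, 6.22 to 10.5; 22 of 23 chromosomes). Unchanged regions were close to members, at 80.4%, a difference of 2.41 points (1.14 to 3.66; 19 of 23 chromosomes). At a ratio of at least 10 the difference between members and lost regions was 2.34 points, with an interval (-4.45 to 9.18) that includes 0. Divergent or overlapping gene pairs were also more frequent. Protein-coding TSSs on both strands lay within 1 kb of 697 members (13.6%, 12.7 to 14.5%), of 86 lost regions (4.22%, 3.43 to 5.18%) and of 10.6% of unchanged regions. The difference from lost regions was 9.35 points (8.02 to 10.6; 22 of 23 chromosomes). Which side of the TSS such a member lies on depends on the gene it is measured from.

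Most members were parts of wider acetylated domains rather than stand-alone peaks. When H2A.Zac regions of any class with gaps of at most 150 bp were joined, the domain of a member had a median length of 1977 bp, and the member took up a median of 30.8% of it. An unchanged H2A.Zac region was in the same domain for 4739 members (92.3%), and 387 members (7.53%) were alone in theirs. Lost regions were also mostly parts of such domains, with unchanged H2A.Zac in 87.1% and 12.5% alone. Members and lost regions sat differently within these domains. Unchanged H2A.Zac reached beyond both ends of 52.2% of the members and of 20.2% of the lost regions, a difference of 32.0 points (Newcombe 95% interval, 29.8 to 34.2; 23 of 23 chromosomes). It reached beyond 1 end only in 39.5% of members and 65.2% of lost regions, a difference of -25.7 points (-28.1 to -23.2; 23 of 23 chromosomes). For lost regions that single end was mostly the downstream one, with unchanged H2A.Zac on the downstream side only in 40.7%, against 15.4% of members. On the upstream side only, the shares were 24.1% of members and 24.5% of lost regions. Opposite changes were also found within 1 domain. A lost H2A.Zac region lay in the domain of 686 members (13.4%), and a gained one in the domain of 423 lost regions (20.8%). Both shares were higher for unchanged H2A.Zac regions, with a lost region in the domain of 25.9% and a gained one in that of 56.1%.

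The deposited classes are not separate stretches of the genome. In all, 4100 members (79.8%) shared at least 1 base with a region of the unchanged H2A.Zac list, with a median of 17.6% of the member's length shared. For 532 members (10.4%) the whole length was also in the unchanged list. Among lost regions, 67.4% shared a base and 8.39% lay wholly within unchanged ones. With members and lost regions limited to those that shared no base with unchanged H2A.Zac, a limit chosen after this overlap was seen, 1037 members stayed, and the gained share of changed regions was 60.9% (58.6 to 63.2%) in place of 71.6%. The share spanning a TSS was still higher for members, by 12.0 points (7.29 to 16.6).

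**Figure D3:**
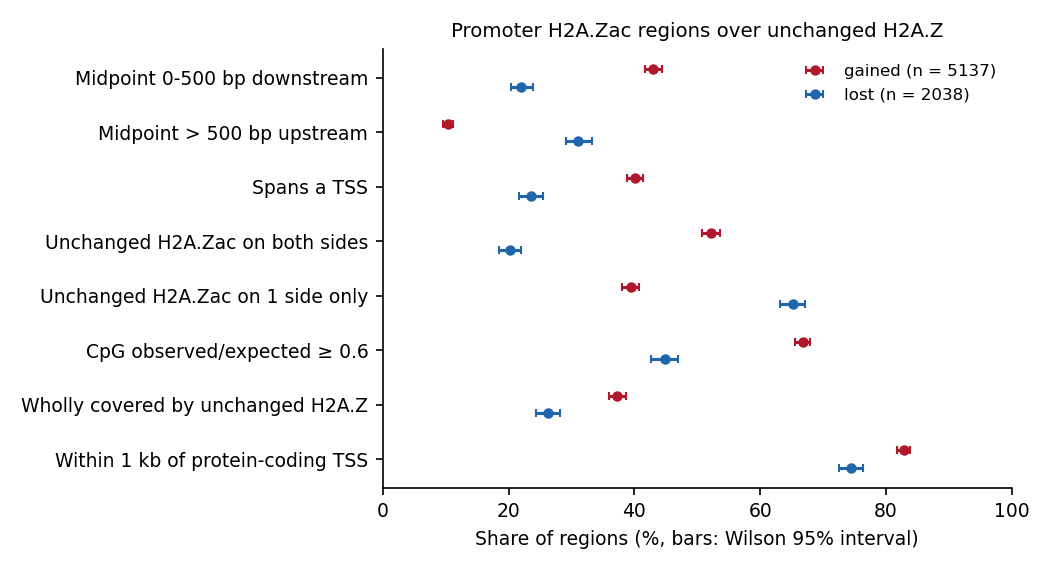
Share of gained (n = 5137) and lost (n = 2038) promoter H2A.Zac regions over unchanged H2A.Z with each property (x axis, percent; bars are Wilson 95% intervals). The widest gap is in unchanged H2A.Zac on both sides, at 52.2% of gained and 20.2% of lost regions.

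Members lay in sequence richer in CpG than lost regions did. CpG-rich sequence is a mark of promoters active in many tissues. The ratio of observed to expected CpG had a median of 0.693 in members, 0.560 in lost regions and 0.674 in unchanged ones, and was higher in members than in lost regions on 23 of 23 chromosomes. A ratio of at least 0.6 was found in 66.8% of members and 44.8% of lost regions (a difference of 22 points; Newcombe 95% interval, 19.4 to 24.4). Median GC content was 59.0% in members, 55.1% in lost regions and 57.5% in unchanged ones. The difference of 3.88 points from lost regions had the same sign on 20 of 23 chromosomes, and it fell to 1.56 points at a ratio of at least 10. Position and composition each went with the gained share. Downstream of the TSS it was 72.1% (68.8 to 75.1%) in regions under 50% GC, 82.6% (80.4 to 84.6%) from 50 to 60% GC and 77.8% (76.0 to 79.5%) above. Upstream it was 52.0% (48.9 to 55.0%), 63.9% (60.8 to 66.8%) and 71.9% (69.0 to 74.6%). In each of the 3 GC classes it was higher downstream than upstream, and only upstream did it rise with each step in GC content. The part that GC content plays in the ChIP signal was not tested.

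The H2A.Z under the members was in the unchanged list by the rule, so its deposited score, a measure of evidence and not of level, had to be low. The unchanged H2A.Z region that shared most bases with a member had a median score of 0.614, from 0.0408 to 2.25, against 0.597 under lost and 0.566 under unchanged H2A.Zac, and the median under members was above that under unchanged H2A.Zac on 22 of 23 chromosomes. It was below 1 under 4407 members (85.8%) and at least 2 under 6. The score has no sign in the unchanged list, so it does not say which line was higher. Unchanged H2A.Z covered a median of 87.1% of a member's length, and 1917 members (37.3%) were wholly covered, against 26.2% of lost regions. Coverage was part of the rule, so these values are a description. Regions that touched changed H2A.Z had been removed from all 3 sets by the rule. The shares with changed H2A.Z nearby are thus lowered by the rule and are a description. A gained H2A.Z region lay within 1 kb of 9.56% of members, 8.05% of lost regions and 10.2% of unchanged ones. A lost H2A.Z region lay within 1 kb of 3.39% of members, 7.56% of lost regions and 6.25% of unchanged ones. The difference between members and lost regions was -4.17 points (-5.48 to -2.98; 21 of 23 chromosomes).

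Promoters at which both marks were gained differed from the members in several respects. The 2190 TSS-proximal gained H2A.Zac regions that touched gained H2A.Z had a median width of 963 bp and a median GC content of 54.7%, and 54.5% of them spanned a TSS, more than among members (member minus other, -14.4 points; Newcombe 95% interval, -16.9 to -11.9; 22 of 23 chromosomes). Midpoints lay downstream of the TSS in 62.8% of them and 63.7% of members, a difference of 0.883 points whose interval (-1.52 to 3.31) includes 0. Within the first 500 bp downstream, members had the higher share, 43.0% against 35.4% (7.63 points, 5.20 to 10; 22 of 23 chromosomes). Unchanged H2A.Zac flanked 35.5% of them on both sides, so the share was 16.7 points (14.2 to 19.1; 23 of 23 chromosomes) higher among members. The median CpG ratio was close in these 2 sets, at 0.669 where gained H2A.Z was touched and 0.693 in members. The 1723 gained regions that touched no H2A.Z had a median CpG ratio of 0.418, and 56.6% of them were near a protein-coding TSS, a share 26.2 points higher among members (23.7 to 28.8; 23 of 23 chromosomes). Median midpoints lay downstream of the TSS in all 3 settings of H2A.Z, at 177, 169 and 155 bp. The median H2A.Zac ratio was lowest in members, at 5.61. It was 7.80 where gained H2A.Z was touched and 6.80 where no H2A.Z was touched.

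The members' own ratios were what placed them in the gained list, so they rank the members and support nothing further. The ratio is a measure of evidence that grows with depth and is not a fold change. Its median was 5.61, with 1861 members (36.2%) from 3 to under 5, 2946 (57.3%) from 5 to under 10, 310 from 10 to under 20 and 20 above. Lost regions had a median of 6.26. The lowest member ratios were 3.10 near KTN1-AS1 and 3.16 near CDK2, and the highest ratios just outside, in regions listed as unchanged, were 2.90 near FBRS and 2.84 near SNF8. At the coverage limit, members near ENSG00000254907 and LINC01551 had 25% of their length covered, and a gained region near ABL2 missed it with 24.9%. Between 25 and 30% coverage lay 109 members, and 86 regions fell short with 20 to under 25%.

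The members with the highest ratios fell into a gene array on chromosome 5 and a set of scattered promoters. The 2 highest ratios, 63.1 and 53, belonged to members upstream of TAF11L10 and TAF11L7 on chromosome 5, genes of a multicopy family related to the general transcription factor subunit TAF11. The first of these members spanned the start of a processed pseudogene, ENSG00000248422. Both loci were gained far beyond the member. At TAF11L10 another gained H2A.Zac region, with a ratio of 44.9, covered the TSS. A gained H2A.Z region with a ratio of 5.26 lay from 269 to 628 bp downstream of that TSS. Within 3 kb of the TSS, TAF11L7 had 7 gained H2A.Zac regions with ratios from 38.9 to 59.1, and a gained H2A.Z region with a ratio of 8.46 lay 1418 bp downstream of the TSS, so that unchanged H2A.Z was listed only under the member itself, with a score of 2.18. H3Y2, a primate histone H3 variant gene nearby, had a member with a ratio of 24.7 over its TSS. The copies of these families are nearly identical, and how reads were divided between them was not tested. Apart from these 3 regions no member had a ratio above 27.9.

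Next in order among protein-coding genes came genes on several chromosomes. At TRIM36, which encodes a ubiquitin ligase, the member (chr5:115179897-115181012, ratio 27.9) spanned the TSS, a second gained H2A.Zac region lay upstream with a ratio of 21.9, and unchanged H2A.Z was listed from 8 to 396 bp downstream with a score of 1.54. At CFAP54, which encodes a protein of motile cilia, the member (chr12:96489558-96490247, ratio 27.7) ran from 13 bp upstream to 676 bp downstream of the TSS and was 96.4% covered by an unchanged H2A.Z region with a score of 0.294. No other H2A.Zac region was within 3 kb. KCNQ1, a potassium channel gene, and TRPM5, a cation channel gene on the other strand, shared 1 member of 470 bp (chr11:2444598-2445067, ratio 25.5, 81.1% GC). ZNF572, a zinc finger gene, had a member with a ratio of 24.9 across its TSS, reaching 622 bp downstream. CFAP77, another cilium gene, and SAMD12 had narrow members of 323 and 314 bp across the TSS, with ratios of 23.1 and 22.8 over H2A.Z with scores of 0.0886 and 0.710. Of the 12 protein-coding genes with the highest ratios, OGDH alone had a member joined to another H2A.Zac region at the 150 bp gap limit. TAF11L10, TAF11L7, TRIM36 and KLF12 had further gained H2A.Zac regions within 3 kb, across wider gaps.

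OGDH encodes a subunit of the mitochondrial 2-oxoglutarate dehydrogenase complex. Its member (chr7:44605244-44606758, ratio 23.4) covered the promoter from 1328 bp upstream to 186 bp downstream of the TSS, and the next base began an unchanged H2A.Zac region that ran to 1102 bp downstream with a ratio of 1.60. The H2A.Z listed there was unchanged, in 3 regions with scores of 0.652, 0.363 and 0.368. At KLF12, which encodes a transcriptional repressor, the member (chr13:74132921-74134388, ratio 22.5) lay from 16 to 1483 bp downstream, followed upstream by 3 weaker gained regions with ratios of 8.01, 6.47 and 5.49, and 1 unchanged H2A.Z region of 2478 bp overlapped all 4.

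Members that spanned the TSS of a protein-coding gene and were wholly covered by unchanged H2A.Z were found at 548 of the 1716 genes whose TSS was spanned. By ratio, SAMD12 was first, followed by CFAP57 (22.2), TP53INP1 (19.3), EPHB2 (18.7) and ADO (16.8). CFAP57, a further cilium gene, held all 3 classes near its TSS. An unchanged H2A.Zac region ended 10 bp upstream, the member (chr1:43172321-43172616) ran from 9 bp upstream to 286 bp downstream, and a lost region with a ratio of 8.97 ran from 382 to 674 bp downstream, above 1 unchanged H2A.Z region with a score of 0.512. TP53INP1 encodes a p53-induced regulator of autophagy and cell death. Its member was 544 bp wide and ended where unchanged H2A.Zac began, 534 bp downstream of the TSS. EPHB2, a receptor tyrosine kinase gene, had a single H2A.Zac region within 3 kb, the member from 370 bp upstream to 22 bp downstream, over H2A.Z with a score of 1.20. ADO encodes a thiol dioxygenase that senses oxygen. The member of ADO covered 895 bp upstream of the TSS and 7 bp beyond it, and overlapped an unchanged H2A.Zac region by part of its length.

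The protein-coding genes with the widest members had ratios from 7.05 to 8.14. The widest, 3995 bp at BHLHE40 (chr3:4977161-4981155), a clock and hypoxia-responsive repressor gene, had a ratio of 7.84 and was 40.4% covered by unchanged H2A.Z. One member of 3788 bp spanned the starts of both ACYP2 and PSME4, an acylphosphatase gene and a proteasome activator gene, with a ratio of 8.14. REL, which encodes an NF-κB subunit, had a member of 3432 bp in intron 1 with a ratio of 7.29, and PURA, a nucleic acid-binding protein gene, one of 3345 bp with a ratio of 7.05. Among members near no protein-coding TSS, the highest ratios at long noncoding RNA genes were 22.3 at ENSG00000217455, 18.5 at LZTS1-AS1 and 18.3 at HTT-AS.

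By gene, 12472 of 20046 protein-coding genes had an H2A.Zac region of any class within 1 kb of the TSS. Of these, 4445 (35.6%) held a member, and 1534 (12.3%) held a lost region over unchanged H2A.Z. Most genes with a member, 3740, had 1, while 690 had 2 and 15 had 3 or more. Both a member and such a lost region were found at 246 genes, 5.53% of those with a member. Members were also near 1595 long noncoding RNA genes. The share of genes with a member was compared across 33 gene groups with the 35.6% of all acetylated protein-coding genes. The groups had been listed with earlier results of these data known, their intervals are not adjusted for their number, and a group whose interval includes 35.6% was not distinguishable from the background by its count.

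**Figure D4:**
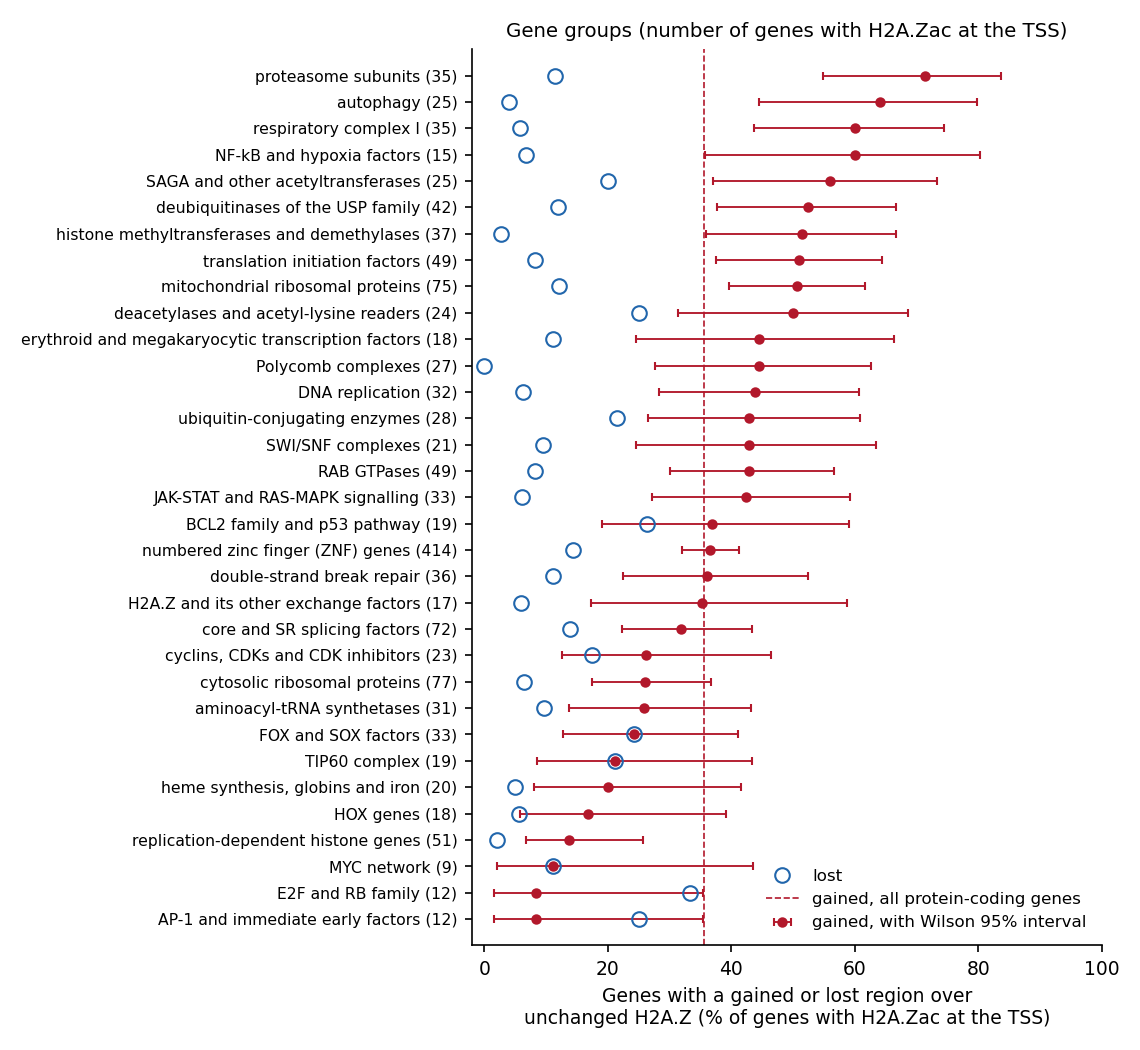
Share of genes with a gained region (filled points, bars are Wilson 95% intervals) or a lost region (open circles) over unchanged H2A.Z, among genes with H2A.Zac at the TSS (x axis, percent), in 33 gene groups (y axis, with the number of such genes). The dashed line marks the 35.6% of all protein-coding genes that held a gained region; proteasome subunits are highest at 71.4%.

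The genes of the TIP60 complex itself could not be told from the background by their count. A member was found at 4 of the 19 TIP60 genes (21.1%; Wilson 95% confidence interval, 8.51 to 43.3%) and a lost region at 4. The members lay at EPC1 and DMAP1, scaffold and DNA methyltransferase-associated subunits, at RUVBL1, an ATPase of the complex, and at ACTB, its actin subunit, with highest ratios of 6.17, 5.67, 3.40 and 8.68. The member of ACTB lay near an outer annotated start, upstream of the canonical transcript, where a lost region was also listed. The other lost regions were at EPC2, MORF4L1 and MRGBP. Among H2A.Z and the factors that place or remove it by other routes, 6 of 17 genes (35.3%, 17.3 to 58.7%) held a member and 1 a lost region. SRCAP, the motor of the other human H2A.Z-depositing complex, had 3 members with ratios of 5.07, 4.31 and 4.07, of which the first spanned the TSS. ZNHIT1, whose upstream sequence is given with the ETS letters, had a member of 1031 bp over its TSS with a ratio of 6.92. INO80B (6.33), NFRKB (5.95), MCRS1 (5.78) and INO80 (5.41), subunits of the INO80 remodeler, followed.

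Of the other chromatin regulators, acetyltransferases and histone methylation enzymes had intervals above the background. SAGA, which shares TRRAP with TIP60, and other acetyltransferases had a member at 14 of 25 genes (56.0%, 37.1 to 73.3%) and a lost region at 5. The highest ratios were at TADA2B (10.9) and ATXN7L3 (8.91), of the acetylation and deubiquitination modules of SAGA, and at KAT7 (7.46), an H3 and H4 acetyltransferase. EP300 and CREBBP, which encode paired acetyltransferase coactivators, had ratios of 5.12 and 4.57, and CREBBP also held a lost region. These 2 genes, RUVBL1, SRCAP, MCRS1 and INO80 fall outside the rule for named genes and were picked after their values were seen. Deacetylases and acetyl-lysine readers had members at 12 of 24 genes (50%, 31.4 to 68.6%) and lost regions at 6, led by HDAC3 (14.6), SIRT1 (11.3) and SIRT3 (7.90). Histone methyltransferases and demethylases had members at 19 of 37 genes (51.4%, 35.9 to 66.6%) and a lost region at 1, KDM4A, which also held a member. KDM1B (12.0), KDM6B (9.07) and SETD3 (8.71) led. Polycomb genes, which silence developmental loci, had members at 12 of 27 (44.4%, 27.6 to 62.7%) and lost regions at none, with RBBP7 (16.1), PCGF3 (11.2) and PHF1 (9.96) first. SWI/SNF remodeler genes had members at 9 of 21 (42.9%, 24.5 to 63.5%), led by SMARCD1 (8.30). Replication-dependent histone genes stood below the background, with 7 of 51 (13.7%, 6.81 to 25.7%). Their strongest member (8.73) covered the start of H2AC4 and lay within 1 kb of that of H3C2.

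Among housekeeping groups, shares ran from 25.8 to 71.4%. Proteasome subunits, which form the protease that degrades ubiquitin-tagged proteins, had the highest share of the 33 groups, with members at 25 of 35 genes (71.4%, 54.9 to 83.7%) and lost regions at 4, 3 of them in genes that also held a member. PSMD2 (11.5), PSMB3 (9.60) and PSMD3 (9.59) led. Autophagy genes had members at 16 of 25 (64.0%, 44.5 to 79.8%). GABARAPL1 (11.7) and GABARAP (7.67), which encode ubiquitin-like proteins of the autophagosome membrane, and ATG4D (7.81), a protease that processes them, had the highest ratios. Subunits of respiratory complex I had members at 21 of 35 genes (60%, 43.6 to 74.4%), led by NDUFA4 (14.5) and NDUFA1 (8.72). Mitochondrial ribosomal proteins had members at 38 of 75 genes (50.7%, 39.6 to 61.7%) and cytosolic ribosomal proteins at 20 of 77 (26.0%, 17.5 to 36.7%). This pair was set side by side after the values were seen, and the difference between them was not tested. Translation initiation factors had 25 of 49 (51.0%, 37.5 to 64.4%), with EIF2S3B (11.8) and EIF3I (10.1) highest, and deubiquitinases of the USP family 22 of 42 (52.4%, 37.7 to 66.6%), with USP19 (10.5) first. Splicing factors (23 of 72, 31.9%), aminoacyl-tRNA synthetases (8 of 31, 25.8%) and double-strand break repair genes (13 of 36, 36.1%) had intervals that include the background.

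Groups of MYC, E2F and AP-1 genes were small, and 1 gene in each held a member. Of 9 acetylated genes of the MYC network, which TIP60 and TRRAP are known to serve as coactivators, only MXD4, a MYC antagonist, held a member (11.1%, 1.99 to 43.5%, which includes the background; ratio 6.55), and MYCL held a lost region. In the E2F and RB family 1 of 12 genes held a member (8.33%, 1.49 to 35.4%), RB1 with a ratio of 7.76, while E2F2, E2F8, TFDP1 and RBL2 held lost regions over unchanged H2A.Z. AP-1 and immediate early factors had a member at IER3 only (1 of 12, 8.33%, 1.49 to 35.4%) and lost regions at FOSB, EGR3 and IER3. The intervals of the E2F and AP-1 groups end just below the background. Cyclins, CDKs and their inhibitors had members at 6 of 23 (26.1%, 12.5 to 46.5%), among them CDK7 (8.20) and the mitotic inhibitor kinase WEE1 (7.02). DNA replication genes had 14 of 32 (43.8%, 28.2 to 60.7%), and ORC4, a subunit of the origin recognition complex, had the highest ratio in that group, 19.2.

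Most groups tied to the blood lineage and its signaling had intervals that include the background. K562 cells carry the BCR-ABL1 fusion and can be driven toward erythroid or megakaryocytic fates. Transcription factors of these fates had members at 8 of 18 genes (44.4%, 24.6 to 66.3%), with LDB1 (8.61), ZFPM1 (8.29), which encodes the GATA1 partner FOG1, and MAFG (7.36) first. Heme synthesis, globin and iron genes had 4 of 20 (20%, 8.07 to 41.6%), led by PPOX (11.0) and SLC25A37 (8.06), an enzyme and an iron importer of the mitochondrion. JAK-STAT and RAS-MAPK genes had 14 of 33 (42.4%, 27.2 to 59.2%) and lost regions at 2, with STAT3 (9.47), SOS2 (7.80) and ABL1 (7.01) highest. NF-κB and hypoxia factors had 9 of 15 (60%, 35.7 to 80.2%), among them HIF1A (9.66), its partner ARNT (9.45) and the prolyl hydroxylase EGLN3 (7.30). Numbered zinc finger genes, the largest group, matched the background with 151 of 414 (36.5%, 32.0 to 41.2%). HOX genes had 3 of 18 (16.7%, 5.84 to 39.2%), and FOX and SOX factors 8 of 33 (24.2%, 12.8 to 41%) with lost regions at 8. BCL2 family and p53 pathway genes had members at 7 of 19 (36.8%, 19.1 to 59%) and lost regions at 5. BAK1 and MDM2 encode a promoter of apoptosis and the p53 ubiquitin ligase. Their members had the highest ratios of the group (9.44 and 9.43), and both genes also held a lost region. Ubiquitin-conjugating enzymes had 12 of 28 (42.9%, 26.5 to 60.9%) and lost regions at 6, and RAB GTPases, which direct vesicle traffic, 21 of 49 (42.9%, 30 to 56.7%). Lost regions over unchanged H2A.Z were found at 0 to 33.3% of the genes of a group, beside the 12.3% of all acetylated protein-coding genes. Over all 33 groups the median ratio of the strongest member per gene lay between 3.78 and 7.76, against 5.78 over all genes with a member. It was 5.06 for autophagy genes and 6.13 for proteasome subunits, the groups with the highest shares.

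Short promoter motifs were searched on both strands from 250 bases before to 50 bases after the start in the RefSeq windows of GRCh38.p14, as exact letters. The letters of the general promoter elements were CCAAT for the CCAAT box, GGGCGG for the GC box bound by SP factors, and TATAAA for the TATA box. Among binding sequences of factor families, CACGTG stood for the E-box of MYC and related factors, CCGGAAGT for ETS factors, AAGATGGC for the zinc finger factor YY1, TGACGTCA for the cyclic AMP response element (CRE), and GCGCATGC for the respiratory regulator NRF1. Each of the last 3 motifs had a pair of forms, which were TGACTCA and its reverse complement TGAGTCA for AP-1, AGATAA and the related form TGATAA for GATA factors, and TTTCGCGC and the related form TTTGGCGC for E2F factors. A window was found by symbol for 3576 of 4444 gene symbols with a member. Windows were taken by gene, so a window need not overlap the member or the lost region of its gene. The motif shares therefore describe promoters of genes, not the sequence of the regions themselves. The 3378 promoters with a member and no lost region were set against the 1030 with a lost region over unchanged H2A.Z and no member. The ETS letters, a binding sequence of a factor family with many members active in blood cells, differed most. They were present in 415 of the 3378 member promoters (12.3%, 11.2 to 13.4%) and in 44 of the 1030 lost promoters (4.27%, 3.20 to 5.69%), a difference of 8.01 points (Newcombe 95% interval, 6.24 to 9.59) that had the same sign on 22 of 23 chromosomes. They were in 4.44% of all 27305 promoter windows and 9.23% of those of protein-coding genes with H2A.Zac at the TSS. The difference was present in each class of GC content of the window, at 9.14 points (5.14 to 12.3) under 60% GC, 8.69 points (5.34 to 11.5) from 60 to 70% and 5.42 points (2.93 to 7.51) above.

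CCAAT, YY1, NRF1 and CRE letters were also more frequent in member than in lost promoters, by 4.32 (0.985 to 7.56), 2.42 (0.796 to 3.82), 2.18 (0.567 to 3.57) and 1.82 points (0.566 to 2.85). In all promoter windows they were present in 35.7, 3.03, 3.27 and 1.98%, and in those of protein-coding genes with H2A.Zac at the TSS in 37.1, 5.48, 5.62 and 3.33%. For CCAAT, member promoters (36.9%) were thus level with the acetylated promoters, and the lost promoters (32.6%) were lower. For the other 6 motifs the interval of the difference includes 0. The E-box, the letters bound by MYC, was in 10.6% of member promoters, 12.0% of lost promoters, 10.4% of acetylated protein-coding promoters and 7.43% of all windows, with a difference between members and lost of -1.44 points (-3.79 to 0.701). In the same order of promoters, GATA letters were in 6.87, 7.38, 7.80 and 16.6%, and E2F letters in 2.22, 1.46, 2.17 and 1.18%. AP-1 letters were in 2.52, 2.43, 2.97 and 4.92%, TATA boxes in 4.26, 4.56, 5.40 and 12.0%, and GC boxes in 72.4, 74.3, 71.0 and 44.6%. A match describes the letters in the window and is not evidence of binding. The intervals are not adjusted for the 11 motifs.

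**Figure D5:**
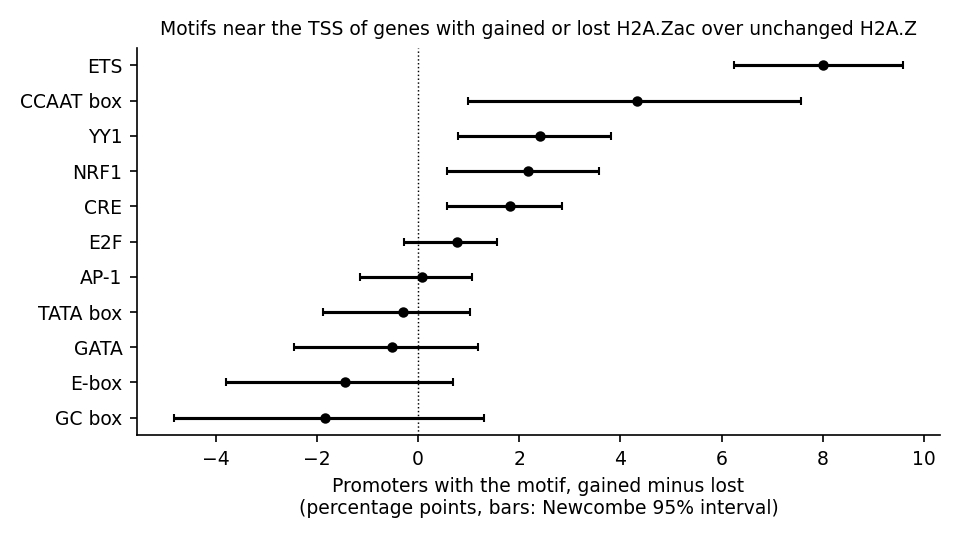
Difference in the share of promoters with each motif (y axis) between genes with gained and genes with lost H2A.Zac over unchanged H2A.Z (x axis, percentage points; bars are Newcombe 95% intervals). ETS letters stand apart at 8.01 points, and 6 of the 11 intervals include 0.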

How the data were processed

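Per the labels and the study's methods, the authors aligned reads to hg38 with Bowtie2 2.4.5, called peaks with MACS2 2.2.7.1, merged the 2 replicates of each line and compared the lines with bdgdiff after scaling to equal effective depth (cutoff 3, minimum length 250 bp, maximum gap 150 bp). Reproducible peaks (IDR up to 0.05) of both lines were merged with bedtools 2.30.0, and regions with at least 25% of their length in them were kept with bedops. The deposited score of each region is its log10 likelihood ratio. It carries no replicate values, and 0 sample columns were left unused.

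The lists were used as deposited, with Python 3.11.15, numpy 2.4.6, pandas 2.3.3, scipy 1.17.1, pysam 0.24.0 and matplotlib 3.10.9. TSSs were the outermost gene starts of GENCODE 44, which is a later release than that of the study. Shares carry Wilson and differences Newcombe 95% intervals, and each chromosome was left out in turn. Scripts were tested on simulated data. Members and gene lists were chosen with earlier results of these data known. Named genes were the protein-coding genes with the 12 highest ratios, the 5 protein-coding genes with the widest members, 5 wholly covered members across a TSS, 3 long noncoding RNA genes, up to 3 per list, and the regions nearest each limit. Promoter sequences and motif windows came from RefSeq (GRCh38.p14), and none is printed from chromosome 8. Coverage tracks, inputs and expression were not analysed here. Results for some genes are not reported here.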

Additional observations from a re-analysis of the deposited data

How the results depend on the processing

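Of 107 alternatives to the 6 main values, 54 left the value within its tolerance, 53 moved it and none turned its direction. The tolerance was 1.5 times either way for the number of members, the range with 1 chromosome left out at a time for GC content, and the 95% interval for the others. The 6 values were the number of members (5137), their share of TSS-proximal gained regions (54.6%), the gained share of changed regions over unchanged H2A.Z (71.6%), and the differences from lost regions in spanning a TSS (16.6 points), median GC content (3.88 points) and nearness to a protein-coding TSS (8.35 points). With 1 bp or 50% of the length covered, the share of gained regions was 58.3% and 47.1%. With 75% covered there were 3278 members, 34.9% of gained regions, with a gained share of 74.6%, a TSS difference of 12.0 and a GC difference of 2.22. Without changed H2A.Z within 1 kb the share was 47.6% and the GC difference 3.34, and with changed H2A.Z allowed the share was 68.4% and the gained share 69.0%. With unchanged H2A.Z scored under 1 only, the share was 47.0%. At a ratio of at least 5 there were 3276 members (48.6%), a gained share of 69.2% and a GC difference of 3.48. At a ratio of at least 10 there were 330 members (22.2%), and the gained share was 53% (49.0 to 56.9%). The GC difference was then 1.56 and the protein-coding difference 2.34 (-4.45 to 9.18). Neither the excess of gained over lost regions nor the protein-coding difference held among these regions of highest ratio. The cause was not tested.

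With TSSs within 500 bp the share was 57.8%, the gained share 75.9%, the TSS difference 12.1 and the GC difference 2.31. Within 2 kb these were 51.0%, 69.2% and, for GC, 4.62, with a protein-coding difference of 15.4. Protein-coding TSSs alone gave 59.2% and 73.7%, and the last 3 differences were not run for them. TSSs of all transcripts gave 50.9%, 70.4% and a TSS difference of 26.8. Regions of at least 500 bp gave 2867 members, 49.1%, 72.9%, and differences of 19.2 and 4.17. Merged neighbors gave 53%, 69.7%, 26.1 and 4.30, and base pairs 44.4% and 73.2%. In 2 alternatives chosen after seeing the data, members sharing under 25% of their length with unchanged H2A.Zac numbered 2950 (47.9%, gained share 68.5%), and those sharing no base 1037 (39.2%, gained share 60.9%, differences of 12.0 and 1.82). Leaving out 1 chromosome at a time gave 4607 to 5070 members, 54.3 to 55.5%, 71.3 to 72.0%, and differences of 15.6 to 17.3, 3.53 to 4.14 and 7.62 to 8.84.

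No paired analysis was possible because the lists used here were made from merged replicates and hold no value for a single one. With 1 comparison per mark and unknown depth, none of these values carries a replicate error.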
